A study of Pyrus x bretschneideri with 2 samples.

Results

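The genes described here are the laccases and polyphenol oxidases that differed between wounded pear fruit (Pyrus x bretschneideri) given a yeast and wounded fruit given water. They were chosen by the authors' log2 fold change and adjusted p-value between the libraries compared here, since only genes that passed both stand in the authors' deposited table, and by a best protein hit named laccase or polyphenol oxidase. That rule found 6 genes among the 381 of the table, and 45022 genes have a level in the FPKM table. They are 2 polyphenol oxidases (Pbr000321 and XLOC_029389), 3 laccase-7-like genes (Pbr035929, Pbr012397 and XLOC_007843) and 1 laccase-15-like gene (Pbr013454). Their differences between the libraries are therefore given as a description. Only called genes carry a protein name in the files, so other laccase or polyphenol oxidase genes of pear could be among the unnamed ones and were not counted.

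The yeast library came from tissue around wounds that had received Meyerozyma guilliermondii, a yeast tested against postharvest rots, and the water library from tissue around wounds that had received sterile distilled water. Fruit of both groups then stood for 3 days at 20 °C. Each group is 1 library, so no value below has a replicate error or a replicate check. The labels do not say how many fruit went into a library, and name no unwounded fruit. FPKM (fragments per kilobase, scaled to the mapped total) corrects for gene length, so levels can be set side by side between genes. The FPKM values summed to 748043 in the yeast library and 692635 in the water library, and read totals, hence counting errors, are unknown.

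Laccases are secreted copper enzymes of the cell wall. They pass electrons from phenols, among them the monolignols that polymerise into lignin, to oxygen, and need no hydrogen peroxide, unlike the class III peroxidases that act on the same substrates. Polyphenol oxidases are copper enzymes of the plastid that turn phenols such as chlorogenic acid and catechins into quinones once cells break and enzyme and substrate mix. The quinones polymerise into the brown pigment seen on cut or bruised pears and apples.

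Polyphenol oxidase was the most abundant of the families and was lower around the yeast-treated wound. Pbr000321 stood at 77.8 FPKM in the yeast library and at 495 FPKM in the water library, a level 6.36 times as high in water as in yeast. With the water treatment its level exceeded that of every other gene of the authors' table. It ranked 1714 of 45022 genes by level in the yeast library and 120 in the water library. It made up 0.0104% of the FPKM sum in the yeast library and 0.0715% in the water library. In bulk tissue, fewer cells that carry a transcript and less of it per cell cannot be told apart.

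A further locus of the same description, XLOC_029389, was listed at 0 FPKM in the yeast library and at 5.34 FPKM in the water library. A value of exactly 0 in such a table can be a failed estimate, so no fold is given. The authors' deposited table nevertheless holds a finite log2 fold change of -6.38 for it. The protein domains deposited for the pair also differ. Pbr000321 carries the tyrosinase domain, which holds the copper site, and the polyphenol oxidase middle domain, while XLOC_029389 carries the tyrosinase domain alone. Its best hit is an apple protein and that of Pbr000321 a pear protein. By Swiss-Prot, XLOC_029389 is instead nearest to a grape polyphenol oxidase and Pbr000321 to an apple one.

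The laccase-7-like genes were likewise lower in the yeast library. Pbr035929 stood at 0.852 FPKM in the yeast library and 28.7 FPKM in the water library, a ratio of 33.6 between water and yeast. Pbr012397 stood at 1.39 FPKM in the yeast library and 7.92 FPKM in the water library, 5.70 times as high in water. XLOC_007843 stood at 0.0697 FPKM in the yeast library and 2.26 FPKM in the water library. All 3 were thus at 1.39 FPKM or less with the yeast, whatever their level with water. The genes share the name of the best hit only in part: by Swiss-Prot, Pbr035929 and Pbr012397 are nearest to Laccase-7 of Arabidopsis and XLOC_007843 to Laccase-9. Pbr035929 and Pbr012397 carry 3 multicopper oxidase domains each, as does Pbr013454, and XLOC_007843 carries 2. Reads of near copies may have been divided among them in a way the files do not show, so the levels of the 3 as separate genes are uncertain.

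The laccase-15-like gene Pbr013454 was instead higher in the yeast library, at a low level. It stood at 1.73 FPKM in the yeast library and 0.359 FPKM in the water library, a ratio of 4.81 between yeast and water. Its nearest Swiss-Prot entry is Laccase-15 of Arabidopsis, an enzyme known there for oxidising flavonoids in the seed coat.

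**Figure D1:**
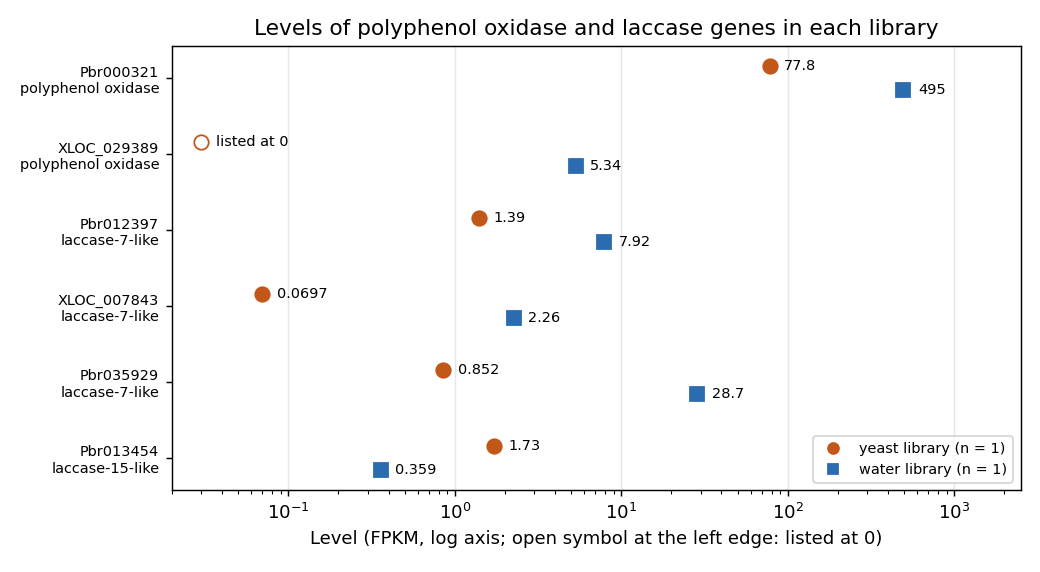
Level of each of the 6 genes in FPKM (log axis) in the yeast library (circles) and the water library (squares), 1 library each, so there are no error bars. The open circle marks XLOC_029389, listed at 0 with the yeast. Pbr013454 is the one gene with its yeast value to the right of its water value.

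With the 3 laccase-7-like genes lower and the 1 laccase-15-like gene higher, the make-up of the called laccases differed between the libraries. The 4 laccase genes summed to 4.04 FPKM in the yeast library and 39.2 FPKM in the water library, 9.71 times as high in water. The laccase-7-like genes made up 2.31 FPKM of this in the yeast library and 38.8 FPKM in the water library. The laccase-15-like gene was 42.8% of the summed level in the yeast library and 0.916% in the water library. Among the laccase-7-like genes, Pbr035929 was 21.1% of the laccase sum with the yeast and 73.1% with water, and Pbr012397 was 34.4% with the yeast and 20.2% with water. XLOC_007843 held 1.73% with the yeast and 5.77% with water. The order of levels in the yeast library was therefore Pbr013454, Pbr012397, Pbr035929 and XLOC_007843, and in the water library Pbr035929, Pbr012397, XLOC_007843 and Pbr013454. Without replicates it cannot be said which neighbours in these orders differ beyond their spread, and the first of the yeast order are close, at 1.73 and 1.39 FPKM. These shares cover the called laccases alone, which were chosen by their difference. That choice made a differing make-up likely without requiring it. The shares are no measure of the make-up of all pear laccases.

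**Figure D2:**
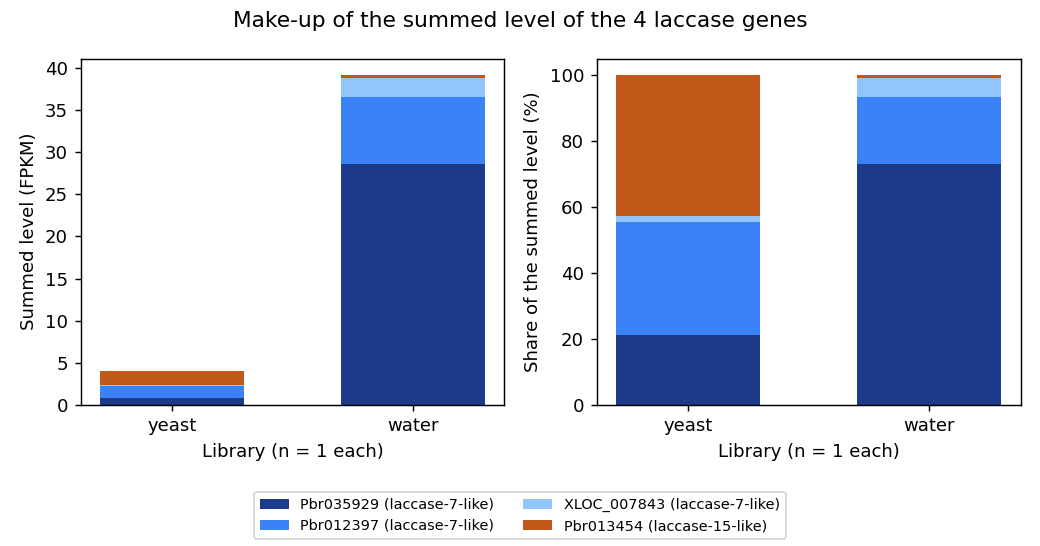
Summed level of the 4 laccase genes in FPKM (left) and the share of each gene in that sum in percent (right), for the yeast and the water library, 1 library each. The laccase-15-like gene (orange) is 42.8% of the sum with the yeast and 0.916% with water, while the sum itself is 4.04 and 39.2 FPKM.

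Set against all genes, the 6 lay at the edges of the distribution, as their selection requires. Differences were measured as log2((yeast FPKM + 1)/(water FPKM + 1)), a scale that understates the change of low genes, over the 22603 genes that reached 1 FPKM in at least one of the libraries. The median over these genes was 0.005, and 93.7% lay within 2-fold. All 6 members passed the filter, with a median of -2.28. At least 2-fold lower with the yeast were 5 of the 6, beside 3.00% of all genes, and at least 2-fold higher was 1, beside 3.32% of all genes (6.32% in either direction). At least 4-fold lower were 3 of the 6, beside 0.858% of all genes, and 4-fold higher were 0, beside 0.637%. These counts and the median take the listed 0 of XLOC_029389 at face value. Without it the median of the other 5 genes was -1.90, with 4 at least 2-fold lower and 2 at least 4-fold lower. The difference was -4.0 for Pbr035929, -2.65 for Pbr000321, -1.90 for Pbr012397, -1.61 for XLOC_007843 and 1.00 for Pbr013454. Only 21 of the 22603 genes had a lower value than Pbr035929. By contrast Pbr013454 sat on the 2-fold line, with 3.30% of genes at or above its value, and fell short of the line once the yeast library was scaled to the same FPKM sum as the water library (0.94).

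**Figure D3:**
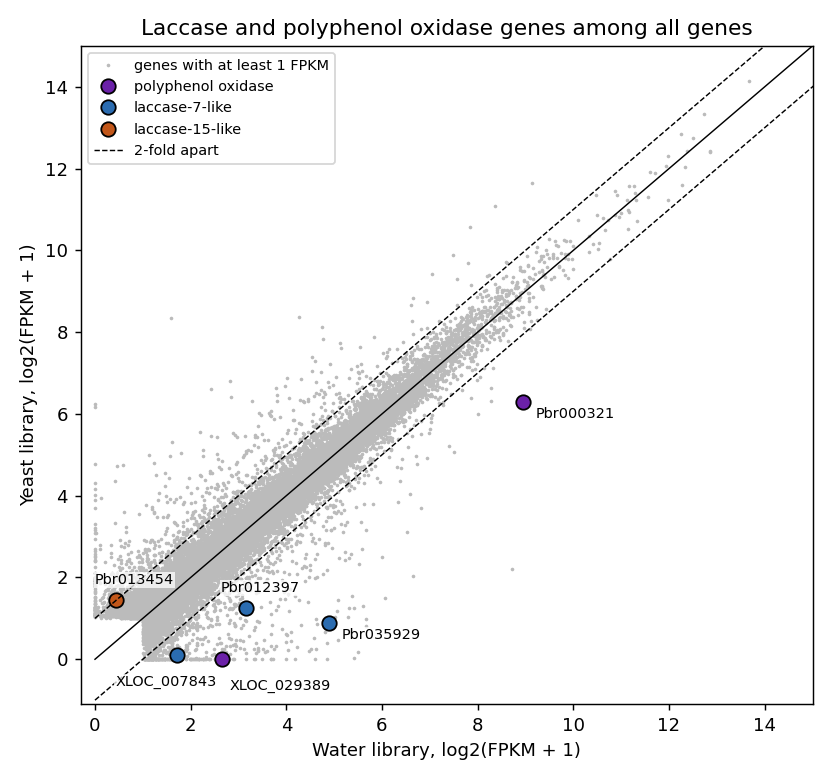
Level of the 22603 genes that reached 1 FPKM in the water library (horizontal) and the yeast library (vertical), both as log2(FPKM + 1), 1 library each, with the 6 genes coloured by family. The solid line marks equal levels and the dashed lines 2-fold. Pbr000321 lies far below the diagonal at a high level with water, and Pbr013454 lies on the upper dashed line.

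Among abundant genes, Pbr000321 had one of the lower ratios, a place that its selection by fold change made likely. At least 100 FPKM in either library was reached by 1407 genes, a level chosen after the values were seen. Of these, 64 were at least 2-fold higher with the yeast and 25 at least 2-fold lower, beside 750 and 678 of the 22603 genes. On the higher side, 11 had a larger difference than Pbr000321 by the size of the log2 ratio. On the lower side, only XLOC_002635 and Pbr037264 among the 1407 had a log2 ratio below that of Pbr000321. XLOC_002635 stood at 3.64 FPKM in the yeast library and 419 FPKM in the water library. It is absent from the authors' table and so carries no description. Pbr037264, described as an AOP2-type dioxygenase, stood at 12.1 FPKM in the yeast library and 111 FPKM in the water library. The authors' deposited table holds 13 of the 1407 genes, 11 higher and 2 lower, and its lower ones are Pbr037264 and Pbr000321.

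The authors' deposited table lists 0.846% of the genes of the FPKM table as different, 0.318% higher and 0.529% lower with the yeast. Its smallest absolute log2 fold change is 2.66 and its largest adjusted p-value 0.00994, and that test compares 2 libraries, not the treatments. The calls of 3 members lay close to that limit. In the authors' deposited table, the log2 fold change was -2.69 for Pbr000321 with an adjusted p of 0.00874, -2.70 for Pbr012397 with 0.00990, and 2.79 for Pbr013454 with 0.00964. The others lay well inside, at -4.78 for XLOC_007843, -5.07 for Pbr035929 and -6.38 for XLOC_029389 in the authors' deposited table. Values of laccase or polyphenol oxidase genes just outside the limit cannot be given, since genes outside the table have no description.

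The genes of the table with the most similar pair of levels were sought among 289 called genes with an informative description, by the distance between their log2(FPKM + 1) values in the 2 libraries. The laccase-7-like gene Pbr035929 had close neighbours. They were the flavonol synthase 3-like genes Pbr003485 (distance 0.20; 1.06 FPKM with the yeast and 31.3 with water) and Pbr003484 (0.35; 1.28 and 32.4), and the TIFY 10B-like gene Pbr039229, of the JAZ repressors of jasmonate signalling (0.26; 0.814 and 23.9). Nearest to the laccase-15-like gene Pbr013454 were tetraketide alpha-pyrone reductase 1 (Pbr024414, distance 0.25; 1.62 FPKM with the yeast and 0.147 with water), an F-box gene (Pbr028156, 0.29; 2.22 and 0.214) and a tyrosine-sulfated glycopeptide receptor 1-like locus (XLOC_005966, 0.29; 1.83 and 0.114). The polyphenol oxidase Pbr000321 had no such neighbour: its closest was Pbr037264, at a distance of 3.36, followed by the EP1-like gene Pbr038206 at 4.0 and by Pbr007917 at 4.47, a zinc finger gene that was higher with the yeast. With 1 library a group, these distances compare levels in 2 libraries and carry no information on shared control. At low levels the added 1 FPKM also draws genes together. The small distances around Pbr013454 are therefore partly a product of the scale.

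Other genes of phenol oxidation and of its substrates were counted among the called genes, with the direction taken from the authors' deposited table. There, 37.5% of all genes were higher and 62.5% lower with the yeast. That split includes 83 genes listed at 0 FPKM in the yeast library only, and was not recounted without them. A list of copper oxidases and other copper proteins, with ascorbate oxidases, plantacyanins, copper transporters and superoxide dismutases, held the same 6 genes and no further one, 1 higher and 5 lower. Dirigent proteins, which steer the coupling of monolignol radicals, had 0 called genes.

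Class III peroxidases, which oxidise monolignols with hydrogen peroxide, were 1 higher and 5 lower, the same split as the copper oxidases, and their log2 ratios had a median of -2.07. Cationic peroxidase 1-like (Pbr015965) was the higher one, at 30.5 FPKM in the yeast library and 1.99 FPKM in the water library. Peroxidase A2-like (Pbr000687) was at 0.425 FPKM in the yeast library and 22.8 FPKM in the water library, and the peroxidase N1-like gene Pbr026503 at 0.105 FPKM in the yeast library and 7.96 FPKM in the water library. The split and the median include 3 genes listed at 0 FPKM with the yeast, and without genes listed at 0 the lower ones were 2. The lower genes Pbr026502 to Pbr026505 carry consecutive identifiers and need not be independent of each other.

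Called genes matched by description to monolignol synthesis were mostly higher with the yeast, with 9 higher, 1 lower and 2.19 as the median of their log2 ratios. Of the higher ones, 6 were left among genes with at least 5 FPKM. The match was by text alone, and whether each gene acts in monolignol synthesis was not tested. Pbr026289, described as probable cinnamyl alcohol dehydrogenase 1, stood at 19.7 FPKM in the yeast library and 0.342 FPKM in the water library. Enzymes of that name carry out the last step to the monolignols. The shikimate O-hydroxycinnamoyltransferase gene Pbr022425 stood at 78.3 FPKM in the yeast library and 8.75 FPKM in the water library. The caffeic acid 3-O-methyltransferase gene Pbr013510, which reached the highest level of the list in either library, stood at 98.3 FPKM in the yeast library and 12.7 FPKM in the water library. The 4-coumarate--CoA ligase 2-like gene Pbr001283 stood at 3.00 FPKM with the yeast and 0.412 FPKM with water. The lower one, Pbr025883, described as caffeic acid 3-O-methyltransferase-like but by Swiss-Prot as an anthranilate N-methyltransferase, stood at 7.89 FPKM in the yeast library and 49.6 FPKM in the water library.

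The flavonoid list, whose products include substrates of polyphenol oxidase and, in Arabidopsis, of Laccase-15, was 1 higher and 16 lower by the authors' deposited table. Its lower gene Pbr003487 is listed at 0 FPKM in both libraries, and without genes listed at 0 in a library 12 lower ones were left. Over its 15 genes that reached 1 FPKM the log2 ratios had a median of -2.67. Of its lower genes, 5 are biphenyl or hydroxycoumarin synthases, caught through a shared domain name and not flavonoid genes. They include the lowest of the list, Pbr027907, at 0.128 FPKM in the yeast library and 44.0 FPKM in the water library. Of these synthases, at least Pbr027907, Pbr027910 and Pbr027912 are still among the 12 that were left. Other lower genes, Pbr003484 to Pbr003488, carry consecutive identifiers and need not be independent of each other. The counts of this list are therefore no measure of a flavonoid pathway. The higher gene was the dihydroflavonol 4-reductase-like Pbr005931, at 2.17 FPKM with the yeast and 0.151 FPKM with water.

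**Figure D4:**
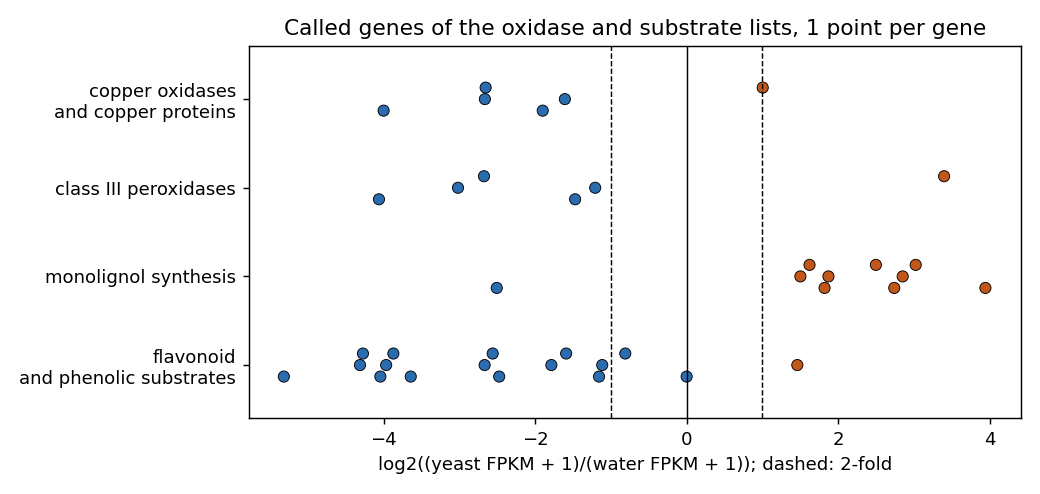
Difference between the yeast and the water library, as log2((yeast FPKM + 1)/(water FPKM + 1)), for each called gene of 4 lists, 1 point per gene, with orange above 0 and blue at or below 0. Dashed lines mark 2-fold. Copper oxidases and peroxidases have 1 gene each on the right, monolignol synthesis 9 of 10, and the point at 0 is a flavonoid-list gene listed at 0 FPKM in both libraries.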

How the data were processed

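Illumina TruSeq libraries were prepared from RNA of wound tissue, per the labels' protocols. The authors deposited FPKM values for 45022 genes in both libraries. They also deposited a table of 381 genes with a log2 fold change of yeast over water and adjusted p-values (FDR), per the file headers. The submitters' processing notes name Bowtie 0.12.2. The counter, genome build and comparison tool were not given in the sources used here.

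Members were matched in the best-hit description. Matching any deposited description column found the same 6. Log2 ratios used a pseudocount of 1 FPKM over genes that reached 1 FPKM in a library, and a 2-fold size rule stood in for a test (python 3.11.15, pandas 2.3.3). The code of the rule was run on simulated data that held counting error alone. That simulation had no spread between fruit, so it does not show how often the rule errs in these libraries. Gene lists were text patterns on the best-hit, Swiss-Prot and Pfam descriptions. The genes named from a list are its 2 highest, its 2 lowest and its most abundant member with at least 1 FPKM, of which the report gives most. The members and lists were chosen with earlier results of these data known. None of the member identifiers matched the reference gene table (0 of 6), so no coordinates or sequences are printed. Alternatives were other pseudocounts, filters, scalings, a 4-fold rule and the authors' log2 values.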

Additional observations from a re-analysis of the deposited data

How the results depend on the processing

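With 1 library a group, nothing here has a test, and the 2-fold line was the threshold. Over 34 alternative log2 ratios of the 6 genes and the family sums, 34 kept their direction and 32 their side of the line. The exceptions were Pbr013454 scaled to the same FPKM sum (0.94) and to a median ratio of 1 (1.00, just under the line), which left 0 members higher. The kept directions were largely fixed beforehand and lend no support. The members were chosen by the authors' log2 values, which are among the alternatives, and a pseudocount cannot turn a direction. The scalings were small, with factors of 0.926 and 0.995 on the yeast library. At least 5 FPKM left 0 higher, and the 4-fold rule left 0 higher and 3 lower. XLOC_007843 ran from -4.78 in the authors' deposited table and -3.80 with a pseudocount of 0.1 to -1.61 with 1, so the size of a low gene's difference depends on the pseudocount. The values of XLOC_029389 ranged more widely still. They are counted above with its listed 0 taken at face value, so the pseudocount sets their size.

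For all genes, 750 were higher and 678 lower, against 1347 and 1100 with a pseudocount of 0.1, 470 and 382 at 5 FPKM or more, 624 and 752 when scaled to the same sum, which turned the balance to more lower, and 144 and 194 by the 4-fold rule, where more were lower too. Among called genes with at least 5 FPKM, copper oxidases had 0 higher, peroxidases 3 lower, and the flavonoid list 0 higher and 10 lower. Monolignol synthesis had 6 higher and 1 lower by the same filter. Without genes listed at 0, peroxidases had 2 lower. No paired analysis was possible because each group holds 1 library.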

Other observations

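The authors' deposited log2 fold changes were set beside log2 ratios of the FPKM values without a pseudocount. Over the 256 called genes above 0 FPKM in both libraries, the deposited value minus the FPKM ratio had a median of -0.004 and quartiles of -0.09 and 0.12, and 22 genes (8.59%) differed by 0.5 or more. Among the members the difference was 0.00 for Pbr035929, -0.02 for Pbr000321, -0.19 for Pbr012397, 0.24 for XLOC_007843 and 0.52 for Pbr013454. The laccase-15-like gene Pbr013454 is therefore one of the 22, with a deposited log2 value of 2.79 in the authors' deposited table against 2.27 from its FPKM values. The cause was not tested.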
